A study of Sus scrofa with 2 samples.

Results

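The genes described here belong to families of transcription factors that pattern tissues during development and mark cell lineages in the adult: the HOXA, HOXB, HOXC and HOXD clusters and the GATA, FOX, TBX, DLX, HAND, MSX, LHX, SOX, PAX and TFAP2 families and 1 further homeobox family. Members were chosen by symbol, as every feature named for one of these families with the exception of FOXA2, which gave 116 of the 26881 features measured and of the 10753 that carry a symbol. The rule by symbol used no measured value, but it was set with earlier results of these data known. Their levels are given for each cell type that marker genes could separate in pig endometrium.

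Endometrium of 2 Yorkshire sows, each 3 years old, had been dissociated and run on the 10x Genomics platform, 1 library of single cells per sow. Its 3' chemistry tags each captured transcript with a unique molecular identifier (UMI). The embryo loss sow (EL) had aborted earlier and then failed to conceive at 3 inseminations in a row, and no gestation day is given for her. The implantation sow (EIS) was at day 30 of pregnancy, a stage at which placental tissue lies against the endometrium. With 1 library per group no test across sows exists, and the sow, her pregnancy status, the stage and the library cannot be told apart. All intervals below are 95% intervals, of UMI counts for levels and ratios and of cell counts for shares of cells. They cover counting error within a library only.

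Transcription factors bind DNA and switch sets of genes on or off, and their combinations are part of what gives a cell type its identity. HOX genes of the central and later groups are known to pattern the Müllerian duct, from which the uterus forms, while MSX, DLX, SOX17, PAX2 and PAX8 are known from its epithelium. In mammals GATA3, TFAP2A, TFAP2C and HAND1 are known as factors of the trophoblast, the outer layer of the conceptus, and GATA4, GATA6, HAND1, HAND2 and FOXF1 also act in its mesoderm.

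Deposited barcodes numbered 10936 in EL, with 43302286 UMIs, against 8848 in EIS, with 36069473 UMIs, and 27 barcode sequences occurred in both. Filtering left 9864 cells in EL (median 2345.5 UMIs) and 8068 in EIS (median 2240.5). Cells were assigned by marker genes that included no member. The EIS library held 1182 trophoblast-gated cells, 1383 other epithelial cells and 305 ciliated cells. It also held 132 mesenchymal cells with at least 2 UMIs of MEST, DLK1 and PLAGL1, and 219 other mesenchymal cells. Vascular endothelial cells numbered 196, lymphatic endothelial cells 51, T or NK cells 324, myeloid cells 254 and neutrophils 94. The EL library held 5410 epithelial, 2097 ciliated, 207 T or NK and 66 myeloid cells, and its remaining classes held 25 cells or fewer. Cells that passed several gates made up 0.882% of EL and 23.9% of EIS cells, and cells that passed none 19.3% of EL and 24.1% of EIS cells. Both kinds were left out. The placental transcript PAG6, a pregnancy-associated glycoprotein, had 3 UMIs in EL cells and 21733 in EIS cells.

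Of the 116 members, 72 had at least 1 UMI in EL cells and 92 in EIS cells, and 44 and 63 of them had at least 20 UMIs in EL and EIS. No UMI was counted in either library for 22 members. Levels are UMIs of a gene scaled to the same total UMIs in every class (CPM). Levels are compared between classes for 1 gene, while the choice of members to name used 1 CPM limit for all genes. A level of at least 50 CPM with at least 20 UMIs, in a class of at least 50 cells, was reached by 31 members. All members together had 100607 UMIs in EL cells and 42385 in EIS cells. The DLX family gave 31786 UMIs in EL and 6642 in EIS, and the MSX family 26852 and 3839. The HAND family had 1 UMI in EL against 2388 in EIS, and the TFAP2 family 9 against 1370. These totals carry the mix of cell types as well as levels within them. Epithelial and ciliated cells were 54.85% and 21.3% of kept EL cells, but 17.1% and 3.78% of kept EIS cells.

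**Figure D1:**
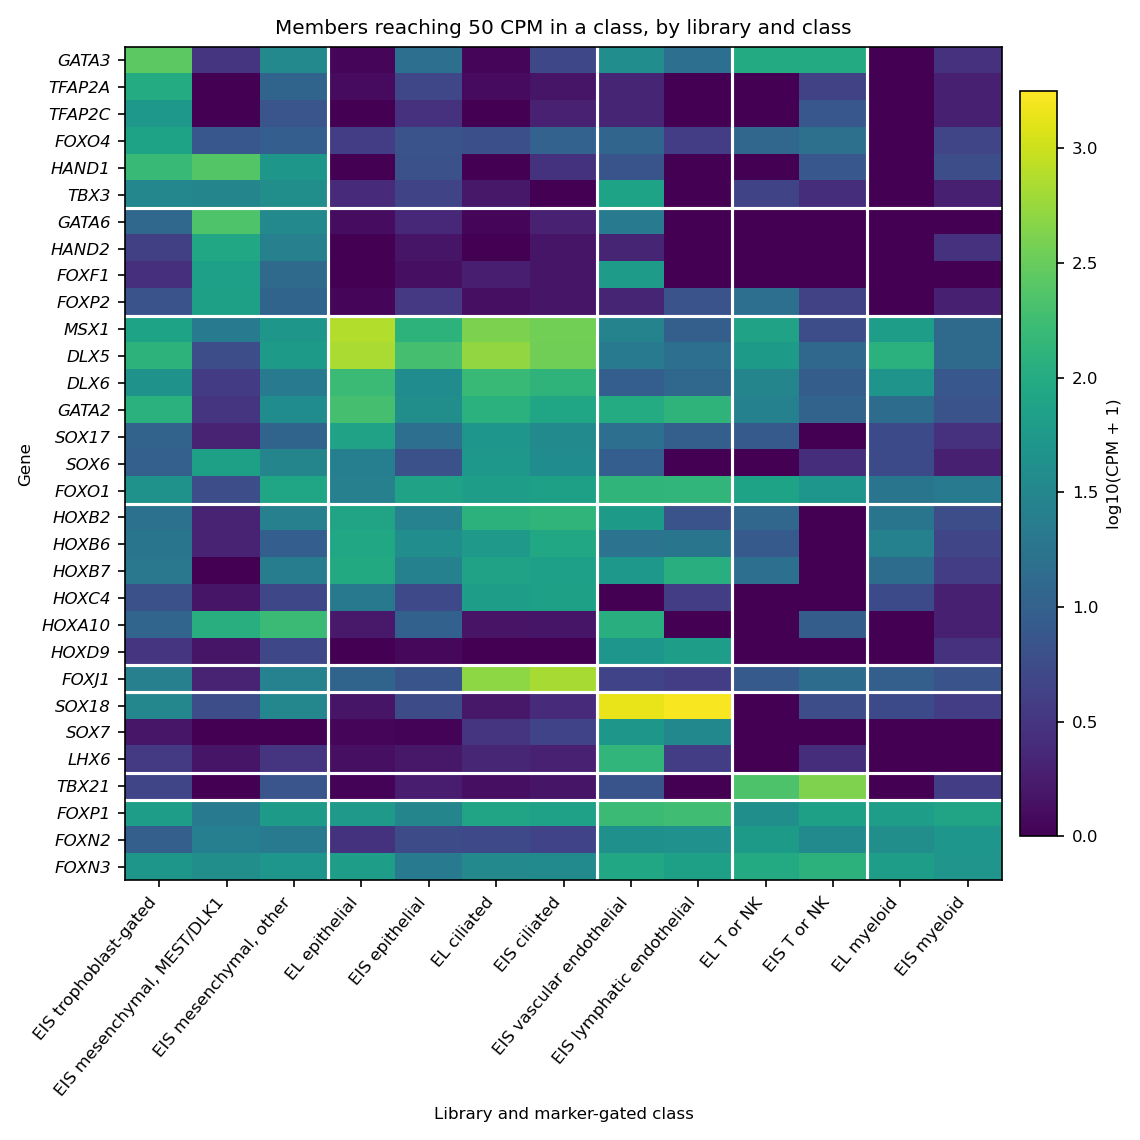
Levels of the 31 members that reached 50 CPM in a class of at least 50 cells, as log10(CPM + 1), with members down the page and library and class across. GATA3, TFAP2A, TFAP2C and HAND1 are bright in the trophoblast-gated column, HAND1, HAND2 and GATA6 in the MEST or DLK1 mesenchyme, and MSX1 and DLX5 in the epithelial and ciliated columns of both libraries.

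Trophoblast-gated EIS cells were set against the other EIS epithelial cells, to compare conceptus with uterine epithelium inside 1 library. The trophoblast-gated cells had far more HAND1, TFAP2A, TFAP2C, GATA3, DLX3 and FOXO4 transcript, and less of the HOXB and PAX genes and of MSX1 and DLX5. The gate rested on PAG6, SMPDL3A and related placental genes, and PLET1, a trophoblast surface gene that took no part in the gate, stood at 10590 CPM in trophoblast-gated and 489 CPM in other epithelial cells. Calls are made relative to the median gene, whose log2 ratio was 0.68 in this comparison, and need a difference of at least 2-fold in features with 20 UMIs or more in both classes together. By that rule 17 of 48 tested members (35.4%) were higher in trophoblast-gated cells, where 15.0% of all 12730 tested features were, and 13 (27.1%) were lower, where 8.91% of all features were. The median over the tested members was 0.28 on the log2 scale relative to the median gene.

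HAND1 (ENSSSCG00025062554), a basic helix-loop-helix factor of trophoblast and early mesoderm, had 157 CPM (146.6 to 168) in trophoblast-gated cells and 5.36 CPM (4.10 to 6.89) in other epithelial cells. The ratio was 29.3 (22.6 to 38.6). After every cell was thinned to 1000 UMIs, 10.2% of 1085 trophoblast-gated cells (exact interval 8.49 to 12.2) and 1.11% of 1261 epithelial cells (0.608 to 1.86) held a HAND1 UMI. Without thinning the shares were 33.8% of trophoblast-gated cells, with a median of 3466 UMIs, and 3.25% of epithelial cells, with a median of 4626. In cells that should lack the gene HAND1 stood at 6.57 CPM (1.79 to 16.8) in EIS T or NK cells, with 4 UMIs, and at 4.79 CPM in EIS myeloid cells, with 5 UMIs. The intervals of these few UMIs held the EIS epithelial level, and the part of free RNA in that level was not tested. No HAND1 UMI was seen in 5410 EL epithelial cells, which allows a level of up to 0.110 CPM, the value of 3 UMIs.

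GATA3 (ENSSSCG00025025868), a zinc finger factor of trophoblast and of T cells, had 266 CPM (252.6 to 280.4) in trophoblast-gated cells against 14.6 CPM (12.5 to 17.0) in other epithelial cells, a ratio of 18.2 (15.5 to 21.6). TFAP2A (ENSSSCG00025061418) had 97.6 CPM in trophoblast-gated cells against 3.96 CPM in the others, a ratio of 24.7 (18.2 to 34.2), and TFAP2C 53.8 CPM against 1.94 CPM, a ratio of 27.8 (18.0 to 45.1). Both are AP-2 factors of trophoblast, and TFAP2C is needed for the placenta in the mouse. In EIS T or NK cells TFAP2A was at 3.28 CPM (0.398 to 11.9), on 2 UMIs, and TFAP2C at 6.57 CPM, on 4 UMIs. The contrast depends on the gate. With 1 distinct marker more in each gate, the trophoblast-gated class fell from 1182 to 90 cells. Cells that fail the trophoblast gate can enter the epithelial class, which grew from 1383 to 1823 cells. The difference relative to the median gene was then 0.77 for HAND1, short of the 2-fold limit, and 1.10 for GATA3 on the log2 scale. How many cells passed from one class to the other is not given. The thinned share of cells with a GATA3 UMI was 19.9% of trophoblast-gated and 2.54% of epithelial cells, with 7.40% of EIS T or NK cells, a lineage that uses the gene.

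Other members moved with these 4. DLX3, a homeobox gene needed for the placenta in the mouse, had 12.5 CPM in trophoblast-gated cells and 0.528 CPM in the others, a ratio of 23.7 (10.3 to 66.8). DLX4 had 5.96 CPM in trophoblast-gated and 0.440 CPM in other epithelial cells. Both were at low levels in both classes. FOXO4, a forkhead factor held back by insulin signalling, had 76.0 CPM in trophoblast-gated cells and 5.80 CPM in the others. GATA2, a paralogue of GATA3, had 117 CPM in trophoblast-gated cells and 39.0 CPM in the others, and its 0.91 on the log2 scale relative to the median gene fell short of the 2-fold limit. Among HOX genes HOXC9 differed most, at 19.4 CPM in trophoblast-gated cells and 1.76 CPM in the others.

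Further called genes are set here beside markers of vascular, mesenchymal and T or NK cells. Ciliary markers, which bear on FOXJ1, are not given. TBX3 was also higher in the epithelial cells with HAVCR1 or DPPA5 transcripts described below than in the remaining epithelial cells. SOX18, a factor of endothelial cells, had 30.7 CPM in trophoblast-gated cells and 4.57 CPM in the others. TBX3 had 30.7 and 3.69 CPM in those classes, GATA6 11.6 and 1.32 CPM, and HAND2 17 and 6 UMIs. TBX21, the factor of NK and T helper cells, had 20 and 9 UMIs, and FOXJ1, the factor of motile cilia, 25.0 and 5.98 CPM. In the same classes 11 of the 12 vascular markers had UMIs in both, VWF being at 0 in both, and together they had 193 CPM in trophoblast-gated and 36.7 CPM in other epithelial cells. All 10 mesenchymal markers were detected, at 2934 and 422 CPM in sum. Of the 14 T or NK markers 13 had UMIs, all but KLRB1, at 412 and 126 CPM. The part of these transcripts in the levels of SOX18, TBX3, GATA6, HAND2, TBX21 and FOXJ1 was not tested. LHX6 and HOXC10 completed the higher group, with 14 and 23 UMIs in trophoblast-gated cells and 7 and 14 in the others.

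The 13 members that were lower in trophoblast-gated cells included 7 genes of the HOXA and HOXB clusters. HOXB6 had 17.1 CPM in trophoblast-gated cells and 37.8 CPM in the others, HOXB2 15.7 and 26.6 CPM, and HOXB7 19.2 and 25.8 CPM. PAX8, a factor kept by Müllerian epithelium in adults, had 11.4 and 22.4 CPM, and PAX2 17 and 79 UMIs. HOXA2, HOXA3, HOXA4, HOXB5 and SOX17 were also lower, on 12 to 52 UMIs in trophoblast-gated and 42 to 163 in other epithelial cells. MSX1 had 75.8 CPM in trophoblast-gated and 124 CPM in other epithelial cells, DLX5 124.3 and 196 CPM, and FOXO1 45.8 and 74.5 CPM. On the CPM scale these 3 ratios lay between 0.611 and 0.634, and the calls also carry the shift of the median gene. HOXB2, HOXB7 and PAX8 likewise differed by less than 2-fold in CPM, so their calls carry that shift too. The secretory protein SLPI, the most abundant transcript of the EIS epithelium, stood at 105600 CPM in trophoblast-gated cells, 278400 CPM in other epithelial cells and 12450 CPM in T or NK cells. MSX1 and DLX5 stood at 4.93 and 11.5 CPM in T or NK cells. What free or doublet RNA adds to MSX1 and DLX5 in trophoblast-gated cells was not tested.

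Of a list of 16 other trophoblast regulators, 12 have a feature and 9 were tested, and 3 were higher in trophoblast-gated cells. CDX2, which sets the first trophoblast cells apart in the mouse, had 8.57 CPM in trophoblast-gated and 0.528 CPM in other epithelial cells. GCM1, a factor of placental cell fusion and branching, had 16.6 and 1.58 CPM, and TP63 6.33 and 0.528 CPM. TEAD4 was lower, at 10.99 and 21.5 CPM. The median of the 9 was 0.28 on the log2 scale relative to the median gene. Of 4 tested HOX cofactors only MEIS2 was called, at 25.5 CPM in trophoblast-gated and 0.352 CPM in other epithelial cells.

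**Figure D2:**
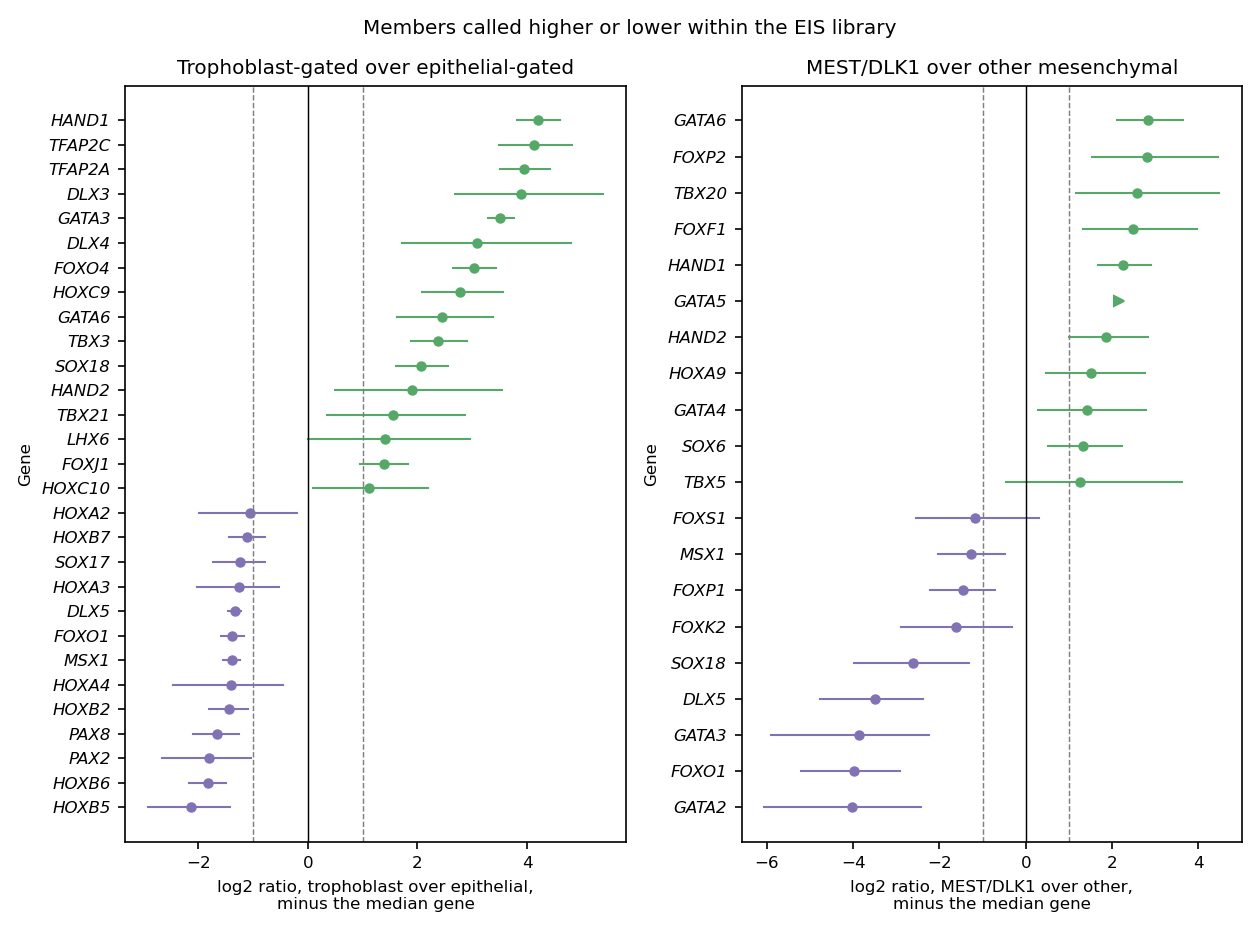
Log2 ratios within the EIS library, relative to the median gene, of members called in the comparison of trophoblast-gated over other epithelial cells and of MEST or DLK1 over other mesenchymal cells. Bars are 95% intervals for counting error, dashed lines mark the 2-fold limits and the triangle a bound for GATA5. HAND1, TFAP2A, TFAP2C and GATA3 lie between 3.51 and 4.20 in trophoblast-gated cells, and GATA6, FOXP2, TBX20 and FOXF1 between 2.49 and 2.83 in the MEST or DLK1 cells.

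The trophoblast-gated cells were not uniform in these factors. Cells with CYP11A1 or CHGA transcripts (376 cells) had more of each trophoblast factor than cells with UPK2 or THBS1 transcripts (147 cells). A cell counted as having a kind of transcript at 2 or more UMIs of that gene pair, whatever its depth. GATA3 had 351 CPM in the CYP11A1 or CHGA cells and 167 CPM in the UPK2 or THBS1 cells, HAND1 235 and 92.2 CPM, and TFAP2A 138 and 35.8 CPM. TFAP2C had 68.8 and 39.2 CPM and FOXO4 107.7 and 52.9 CPM. Cells with both kinds of transcript (307 cells) lay between these for GATA3, HAND1, TFAP2A, TFAP2C and FOXO4, for example at 132 CPM of HAND1. PAG6 followed the same order, with 3670, 1258 and 2472 CPM in the CYP11A1 or CHGA cells, the UPK2 or THBS1 cells and the cells with both. The other 352 cells had fewer than 2 UMIs of each gene pair. They were the shallowest, with a median of 1811.5 UMIs against 3434 to 5450 in the other subsets. These 352 cells had 129 CPM of GATA3, 55.3 CPM of HAND1, 25.7 CPM of TFAP2C and 42.4 CPM of FOXO4, below the UPK2 or THBS1 cells. Their 50.2 CPM of TFAP2A and 1529 CPM of PAG6 lay above the UPK2 or THBS1 cells. The part of depth in these differences was not tested. The intervals of these 2 subsets overlapped for the 5 factors. These subsets share 1 library, so their differences are described without a test.

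The EIS cells left out of all classes held trophoblast factors too. HAND1 stood at 85.5 CPM in cells that passed several gates and 30.4 CPM in cells that passed none. TFAP2A stood at 33.9 and 14.8 CPM in those cells. How many of them passed the trophoblast gate among others is not given. Within the EIS epithelial class, outside the trophoblast gate, a small subset also carried the trophoblast factors. The 97 epithelial cells with HAVCR1 or DPPA5 transcripts had 176 CPM of GATA3, 89.9 CPM of TFAP2A, 53.3 CPM of HAND1 (16 UMIs), 23.3 CPM of TFAP2C and 40.0 CPM of TBX3. The remaining 1134 epithelial cells had 5.91 CPM of GATA3, 1.38 CPM of TFAP2A, 3.74 CPM of HAND1, 0.985 CPM of TFAP2C and 1.77 CPM of TBX3. PLET1 stood at 12870 CPM in the HAVCR1 or DPPA5 cells and 103 CPM in the remaining cells, and PAG6 at 529 and 15.0 CPM. By these genes the HAVCR1 or DPPA5 cells resembled the trophoblast-gated cells, from which the gate had kept them apart. This subset and the UPK2 or THBS1 subset below each needed at least 2 UMIs and 20 per 10000 of their genes. The remaining epithelial cells can thus hold some of these transcripts.

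The 152 epithelial cells with UPK2 or THBS1 transcripts had another set. HOXA10 had 76.3 CPM (59.5 to 96.4) in them and 3.15 CPM in the remaining epithelial cells, HOXA9 57.8 and 2.07 CPM, and HOXC10 13.1 and 0.197 CPM. GATA3 stood at 57.8 and 5.91 CPM, while HAND1 stood at 7.63 CPM, with 7 UMIs, and 3.74 CPM. DLX5 was at 59.9 CPM in the UPK2 or THBS1 cells and 210 CPM in the remaining cells, and SOX17 at 2.18 and 15.4 CPM. This group of epithelial cells thus paired high HOXA9 and HOXA10 with little TFAP2A, at 4.36 CPM. When the UPK2 or THBS1 and the HAVCR1 or DPPA5 cells were left out of the epithelial side, the log2 ratio of trophoblast-gated cells relative to the median gene was 4.69 for GATA3, 4.59 for HAND1, 5.35 for TFAP2A and 4.97 for TFAP2C.

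**Figure D3:**
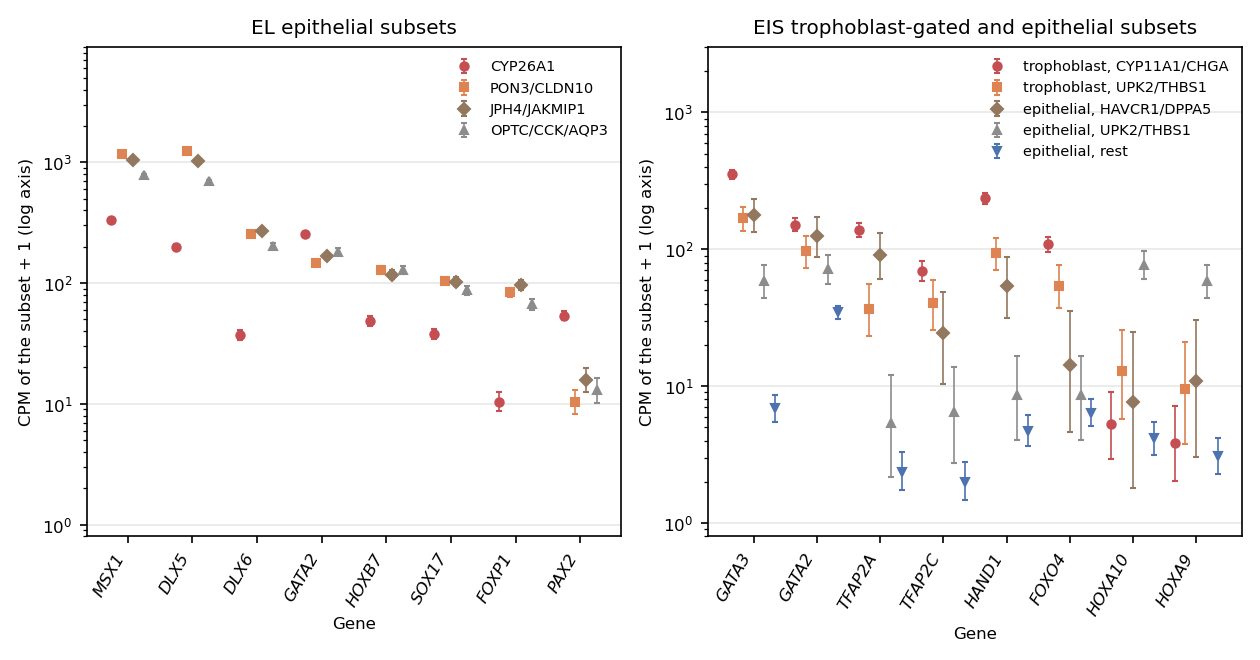
Levels (CPM + 1, log axis) of 8 members in subsets of the EL epithelium (left) and of the EIS trophoblast-gated and epithelial cells (right), with 95% Poisson intervals as bars. On the left MSX1 and DLX5 are lowest and PAX2 highest in the CYP26A1 cells, and on the right HOXA10 and HOXA9 are highest in the epithelial cells with UPK2 or THBS1, at 76.3 and 57.8 CPM.

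Among EIS mesenchymal cells, those with at least 2 UMIs of MEST, DLK1 and PLAGL1, genes of fetal and imprinted expression, were set against the others, to ask which factors separate conceptus-type from uterine-type stroma. The MEST or DLK1 cells had more GATA4, GATA5, GATA6, HAND1, HAND2, FOXF1, TBX20 and FOXP2 transcript, and less GATA2, GATA3, FOXO1 and DLX5. By the 2-fold rule 11 of 26 tested members (42.3%) were higher in the MEST or DLK1 cells, where 12.9% of all 8338 tested features were, and 9 (34.6%) were lower, where 14.8% of features were. The median over the tested members was 0.29 on the log2 scale relative to the median gene, whose own log2 ratio was -0.05. Depth differed between the groups, with medians of 13896.5 UMIs in the MEST or DLK1 cells and 1279 in the others. The split asked for 2 UMIs whatever the depth of a cell, so shallow cells could miss it. Among the others 46 cells held 1 UMI of the split genes, at a median of 1437 UMIs. Of the other cells 28.8% lay within 1.25-fold of the limit of the mesenchymal gate.

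GATA6 (ENSSSCG00025056547), a zinc finger factor of extraembryonic endoderm and heart, had 226 CPM (205 to 249) in the MEST or DLK1 cells and 33.0 CPM (18.9 to 53.6) in the other mesenchymal cells, a ratio of 6.86 (4.17 to 12.1). HAND1 had 238 CPM (216 to 261) in the MEST or DLK1 cells and 51.5 CPM (33.4 to 76.1) in the others, a ratio of 4.61 (3.08 to 7.21). HAND2 (ENSSSCG00025010619), which serves progesterone signalling in uterine stroma of the mouse and also heart and limb development, had 86.3 and 24.7 CPM. HAND1 thus stood at 238 CPM in the MEST or DLK1 mesenchyme and 157 CPM in trophoblast-gated cells, whereas HAND2 was at 86.3 CPM in the mesenchyme and 3.17 CPM in trophoblast-gated cells. FOXF1, a factor of the allantois and gut mesenchyme in the mouse, had 67.2 CPM in the MEST or DLK1 cells and 12.4 CPM in the others. TBX20 had 47.5 and 8.25 CPM, FOXP2 69.4 and 10.3 CPM, and SOX6 69.4 and 28.9 CPM. GATA4 had 37.2 and 14.4 CPM. GATA5 had 49 UMIs in the MEST or DLK1 cells and 0 in the others, and with 3 UMIs set in place of 0 it was 4.33-fold higher. These GATA, HAND and TBX genes are known together from heart and early mesoderm. TBX5 was called on 26 and 3 UMIs, with a ratio of 2.30 (0.704 to 11.9).

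In the opposite direction, GATA2 had 4 UMIs (2.19 CPM) in the MEST or DLK1 cells and 18 UMIs (37.1 CPM) in the others, GATA3 4 and 16 UMIs, and DLX5 9 and 28 UMIs. FOXO1, which serves decidual change of stroma in human cells, had 4.92 CPM in the MEST or DLK1 cells and 80.4 CPM in the others. MSX1 had 20.8 and 51.5 CPM. The other mesenchymal cells also had more transcript of epithelial and trophoblast genes, with KRT8 at 20.8 CPM in the MEST or DLK1 cells and 159 CPM in the others, PLET1 at 41.5 and 439 CPM, PAG6 at 13.1 and 57.7 CPM and SLPI at 10050 and 75820 CPM. All 9 epithelial markers were detected in the other cells, summing to 736 CPM, and 8 of the 9 in the MEST or DLK1 cells, with GRHL2 at 0, summing to 141 CPM. Their part in the levels of GATA2, GATA3, DLX5 and MSX1 was not tested. HOXA10 was not called, at 108 CPM (93.7 to 124.4) in the MEST or DLK1 cells and 163 CPM (129 to 203) in the others, whereas HOXA9 was higher, at 45.4 and 16.5 CPM. FOXK2, FOXP1, FOXS1 and SOX18 completed the lower group, on 9 to 37 UMIs in the MEST or DLK1 cells and 8 to 28 in the others, and for FOXS1 the interval of the ratio, 0.166 to 1.20, held 1.

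Genes of Müllerian stroma outside these families differed more widely. Of the 12 listed, 7 were tested, 6 were lower in the MEST or DLK1 cells and 1, OSR1, was higher, and their median was -5.87 on the log2 scale relative to the median gene. NR2F2 had 2.19 CPM in the MEST or DLK1 cells and 264 CPM in the others, PRRX1 0.547 and 47.4 CPM, and the progesterone receptor PGR 0.547 and 39.2 CPM. WT1 had no UMI in the MEST or DLK1 cells and 51.5 CPM in the others. The split thus also separated the cells by markers that had no part in it. In cells with at least 2000 UMIs, 118 and 52 in the 2 groups, the log2 difference relative to the median gene was 3.80 for GATA6, 3.02 for HAND1, -1.09 for HOXA10 and 0.02 for MSX1. With every cell thinned to 1000 UMIs, which left 129 and 152 cells and few UMIs, it was 2.15 for GATA6, 0.84 for HAND1, short of the limit, 0.415 for SOX6 and 0 for GATA4. A HAND1 UMI was then found in 13.2% of the MEST or DLK1 cells (7.87 to 20.3) and 9.21% of the others (5.13 to 15.0), against 74.2% and 10.96% without thinning, so the call of HAND1 in this comparison depends on how depth is treated. EL mesenchymal cells numbered 15, too few for a comparison with EIS. They had 408.5 CPM of HOXA10, on 21 UMIs, and no UMI of HAND1 or GATA6.

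Non-ciliated epithelial cells without trophoblast markers were compared between EL and EIS. EL epithelium had more MSX1, MSX2, GATA2, SOX17, HOXA2 and HOXA3 transcript, and EIS epithelium more FOXO1 and PAX8. The EIS epithelium also held transcripts of the trophoblast factors and of HOXA9 and HOXA10, in part in the small subsets described above. By the 2-fold rule 13 of 47 tested members (27.7%) were higher in EL, where 17.3% of all 14815 tested features were, and 16 (34.0%) were lower, where 19.3% of features were. The median over the tested members was 0.27 on the log2 scale relative to the median gene, whose log2 ratio of EL over EIS was 1.21. SLPI alone had 20.6 CPM in EL and 278400 CPM in EIS epithelium, which lowers every other CPM value of the EIS class. The calls relative to the median gene take away the whole shift of 1.21, and the part of SLPI in it was not tested.

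MSX1 (ENSSSCG00025048025), a homeobox gene whose uterine expression is lost at implantation in the mouse, had 749 CPM (739 to 760) in EL and 124 CPM (118 to 131) in EIS epithelium. The ratio was 6.04 (5.72 to 6.38), or 1.38 on the log2 scale relative to the median gene. Its paralogue MSX2 had 35.5 CPM in EL and 3.96 CPM in EIS, a ratio of 8.98 (6.66 to 12.4). DLX5 (ENSSSCG00025043996), which with DLX6 serves uterine gland formation in the mouse, had 695 CPM (685 to 705) in EL and 196 CPM (188 to 204) in EIS. Its neighbour DLX6 had 165 CPM in EL and 37.4 CPM in EIS. Relative to the median gene DLX5 differed by 0.62 and DLX6 by 0.93 on the log2 scale, both short of the limit. After thinning to 1000 UMIs a UMI of MSX1 was found in 53.7% of EL (52.3 to 55.1) and 11.7% of EIS epithelial cells (10.0 to 13.6), against 4.09% of EL and 0.643% of EIS T or NK cells. Without thinning the epithelial shares were 83.1% in EL, with a median of 3196 UMIs, and 47.9% in EIS, with a median of 4626.

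GATA2, which acts with the progesterone receptor in uterine epithelium of the mouse, had 196 CPM (191 to 201.5) in EL and 39.0 CPM (35.4 to 42.8) in EIS epithelium, a ratio of 5.04 (4.57 to 5.56). SOX17, needed for implantation in the mouse, had 74.4 CPM in EL and 14.3 CPM in EIS, a ratio of 5.19 (4.43 to 6.13). The progesterone receptor PGR itself had 52.7 CPM in EL and 4.66 CPM in EIS, and the oestrogen receptor ESR1 339 and 26.1 CPM. Among the SOX genes SOX5 and SOX12 were also higher in EL, at 19.7 and 8.67 CPM against 3.61 and 1.32 CPM in EIS. SOX9, a factor of gland progenitors, had 137 UMIs in EL and 3 in EIS, with an interval of the ratio from 6.37 to 93.3. Of the 137, 115 lay in the EL subset named for CYP26A1, described below. Without those cells the difference was 0.97 on the log2 scale relative to the median gene.

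Among the early HOX genes HOXA2 and HOXA3 were higher in EL epithelium. HOXA2 had 33.8 CPM in EL and 3.87 CPM in EIS, a ratio of 8.73 (6.45 to 12.1), and HOXA3 40.9 and 5.80 CPM, a ratio of 7.04 (5.49 to 9.17). HOXB7 had 94.3 CPM in EL and 25.8 CPM in EIS, HOXB2 77.1 and 26.6 CPM and HOXB6 84.7 and 37.8 CPM. These 3 HOXB genes lay between -0.05 and 0.66 on the log2 scale relative to the median gene and were not called. HOXC4, with 532 UMIs in EL and 48 in EIS, differed by 0.995 and fell short of the limit, and HOXA4 and HOXB5 differed by 0.27 and -0.46. HOXB9, HOXC5, TBX6 and FOXQ1 completed the higher group with 20 to 157 UMIs in EL and 1 to 13 in EIS. FOXQ1 rested on 20 and 1 UMIs, with a ratio of 8.32 (1.33 to 345).

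FOXO1, a factor of receptive uterine epithelium in the mouse, was lower in EL, with 25.1 CPM (23.3 to 27.0) in EL and 74.5 CPM (69.6 to 79.7) in EIS, a ratio of 0.337 (0.304 to 0.373). PAX8 had 9.07 CPM in EL and 22.4 CPM in EIS, a ratio of 0.405 (0.338 to 0.484). Its relative PAX2 ran the other way, at 27.4 CPM in EL against 6.95 CPM in EIS. That difference, 0.77 on the log2 scale relative to the median gene, became -0.56 without the EL CYP26A1 subset, which held most of the PAX2 transcript.

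The trophoblast factors were also lower in EL epithelium. GATA3 had 3 UMIs in EL and 166 in EIS epithelium, a ratio of 0.00752 (0.00154 to 0.0224). HAND1 had 0 and 61 UMIs, and with 3 UMIs set in place of 0 it was 48.9-fold lower in EL. TFAP2A had 7 and 45 UMIs and TFAP2C 0 and 22. HOXA10 had 0.658 CPM in EL and 9.14 CPM in EIS, and HOXA9 0.695 and 6.77 CPM. Of the 166 GATA3 UMIs in EIS 53 lay in the HAVCR1 or DPPA5 cells, 53 in the UPK2 or THBS1 cells and 60 in the remaining cells. Of the 104 HOXA10 UMIs 70 lay in the UPK2 or THBS1 cells, while 38 of the 61 HAND1 UMIs lay in the remaining cells. Without the UPK2 or THBS1 and HAVCR1 or DPPA5 cells on the EIS side the differences relative to the median gene were -7.10 for GATA3, -3.78 for TFAP2A and -3.61 for HOXA10. PAG6 stood at 0.110 CPM in EL, against 31.2 CPM in EIS epithelium, and PLET1 at 0 and 489 CPM, and their part in the EIS levels of the trophoblast factors was not tested. HOXC9, FOXN2, FOXO4, FOXP2, GATA6, SOX18 and TBX3 were also lower in EL, at 3.69 CPM in EIS for TBX3 and 0 to 79 UMIs in EL.

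**Figure D4:**
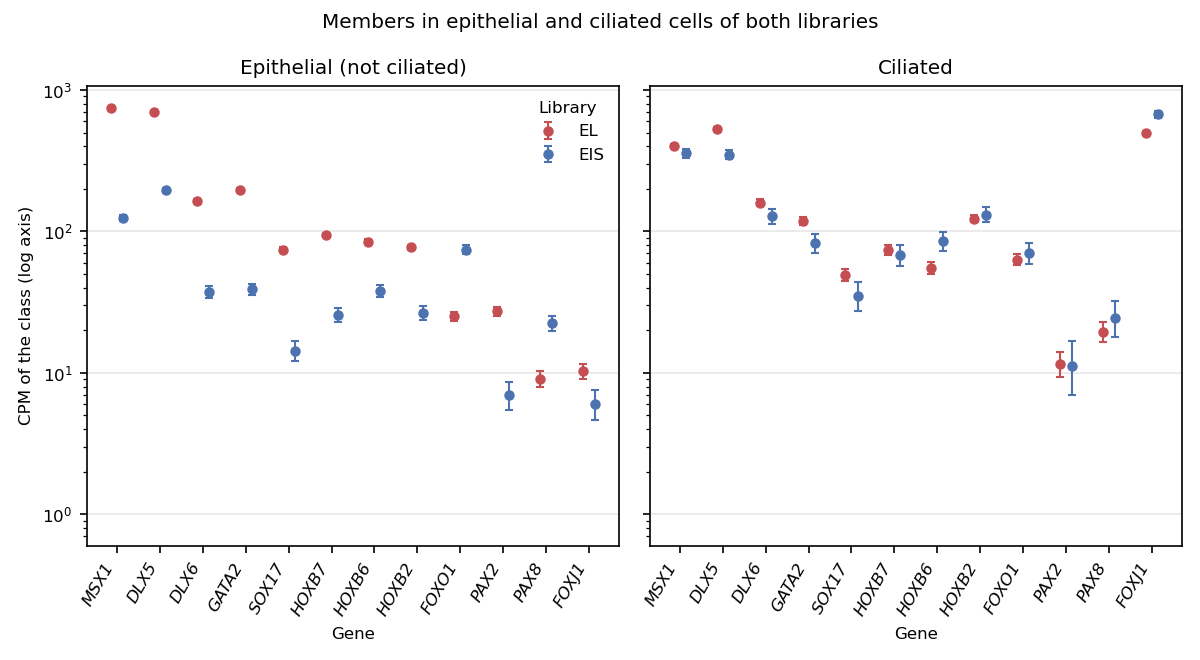
Levels (CPM, log axis) of 12 members in EL and EIS non-ciliated epithelial cells and ciliated cells, with 95% Poisson intervals for counting error. MSX1 stands at 749 CPM in EL against 124 CPM in EIS epithelium, and at 404 CPM in EL against 357 CPM in EIS ciliated cells.

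Inside the EL epithelium the same genes differed between subsets. Each cell was put with the gene set that was highest relative to its mean over the EL epithelium, given at least 2 UMIs. Cells of the other subsets can thus also hold CYP26A1 transcript. The 928 cells put with CYP26A1, the gene of an enzyme that breaks down retinoic acid, had the lowest MSX1, at 330 CPM. MSX1 stood at 1173 CPM in the PON3 or CLDN10 cells, 1039 CPM in the JPH4 or JAKMIP1 cells and 778 CPM in the OPTC, CCK or AQP3 cells. DLX5 had 199 CPM in the CYP26A1 cells and 1232, 1026 and 693 CPM in those 3 subsets, and DLX6 36.1 CPM and 253, 271 and 201 CPM. HOXA2 had 3.75 CPM in the CYP26A1 cells and 37.6 to 61.3 CPM in the other 3 subsets, and HOXC4 2.02 and 23.4 to 36.8 CPM. FOXP1 stood at 9.42 CPM in the CYP26A1 cells and 65.6 to 94.95 CPM in the others. In contrast PAX2 had 52.6 CPM in the CYP26A1 cells and 9.44 to 14.7 CPM in the other 3, and GATA2 252 CPM and 146 to 180.5 CPM. The CYP26A1 cells were the deepest, with a median of 10818 UMIs. Without them the EL and EIS difference of DLX5 was 1.02 on the log2 scale relative to the median gene, past the limit.

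In ciliated cells the levels of the members were also compared between EL and EIS. FOXJ1 (ENSSSCG00025047743), the master factor of motile cilia, had 495 CPM (480 to 510) in EL and 675 CPM (639 to 712) in EIS ciliated cells, a ratio of 0.733 (0.689 to 0.781). DLX5 had 532 CPM in EL and 348.5 CPM in EIS, and MSX1 404 and 357 CPM. GATA2 had 119 CPM in EL and 82.6 CPM in EIS, SOX17 49.6 and 35.0 CPM, and HOXB2 123 and 131 CPM. By the rule 1 of 33 tested members (3.03%) was higher in EL, where 6.57% of all 12463 tested features were, and none was lower, where 5.40% of features were. Both shares lay near or below those of all features, so they are no result about the members. The member called was SOX9, on 28 and 1 UMIs, and its difference became -0.30 on the log2 scale relative to the median gene when cells were thinned to 1000 UMIs. The members' median was 0.06 relative to the median gene, whose log2 ratio was 0.07. Of 7 tested genes of the multiciliated programme none was higher and CCNO was lower, at 1.47 CPM in EL against 7.09 CPM in EIS, while MYB had 69.2 and 52.2 CPM, TP73 118 and 124 CPM and RFX2 125 and 136 CPM. Whether the EL and EIS difference in MSX1 or SOX17 itself differs between epithelial and ciliated cells was not tested.

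The HOX genes differed in the classes that held them. In the clusters early genes such as HOXA2 lie at one end and late ones such as HOXA10 at the other. HOXA2 and HOXA3 stood at 3.87 to 43.3 CPM in the epithelial and ciliated cells of both sows, and at 0.547 to 2.06 CPM in EIS mesenchyme. HOXB2, HOXB6 and HOXB7 stood at 25.8 to 131 CPM in the same epithelial and ciliated cells and at 0 to 1.09 CPM in the MEST or DLK1 mesenchyme. HOXC4 reached 62.6 CPM in EL and 68.9 CPM in EIS ciliated cells, against 19.5 CPM in EL and 4.22 CPM in EIS epithelial cells. These early and central genes were thus higher in epithelium than in conceptus-type mesenchyme. Endothelium held early and late genes together: HOXB2 stood at 57.9 CPM and HOXB7 at 53.1 CPM in EIS vascular cells, beside HOXA10, and HOXB7 at 109.5 CPM in EIS lymphatic cells.

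HOXA10 (ENSSSCG00025069672), the late HOX gene long known from uterine stroma, had 108 CPM in the MEST or DLK1 mesenchyme, 163 CPM in the other EIS mesenchyme and 108 CPM in EIS vascular endothelium (86.5 to 132). It was at 0.490 CPM in EL against 0.507 CPM in EIS ciliated cells and at 0 UMIs in lymphatic endothelium. HOXD9 stood at 49.6 CPM in EIS vascular and 66.3 CPM in EIS lymphatic endothelium and at 0 to 4.12 CPM in the epithelial, ciliated, trophoblast-gated and mesenchymal classes of at least 50 cells. HOXC9 had 1 UMI in EL cells and 186 in EIS cells, and HOXC10 0 and 47. In EIS 104 of the 186 HOXC9 UMIs lay in trophoblast-gated cells. HOXA11 and HOXD10 have no feature under those symbols.

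**Figure D5:**
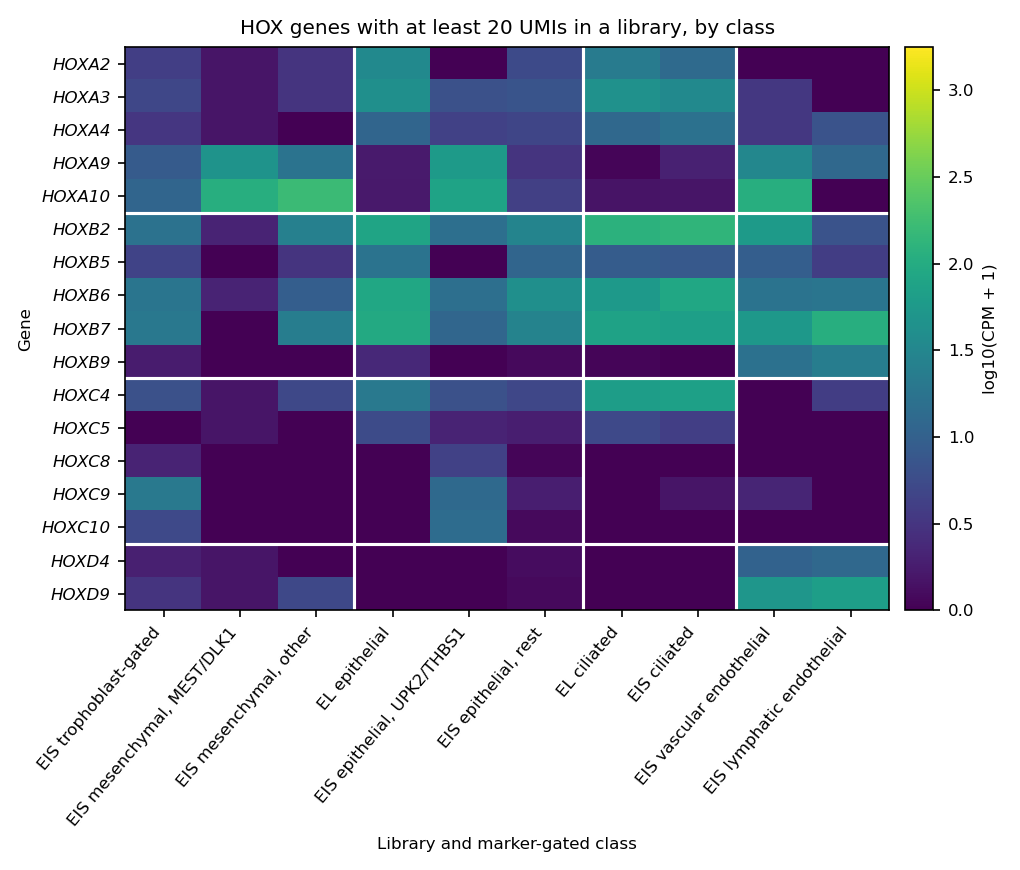
Levels of 17 HOX genes with at least 20 UMIs in a library, as log10(CPM + 1), by library and class. Early HOXA and HOXB genes are bright in the epithelial and ciliated columns, HOXB2 and HOXB7 also in the vascular column, HOXA9 and HOXA10 in the mesenchymal and vascular columns and HOXD9 in both endothelial columns.

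In the endothelium SOX18 (ENSSSCG00025073093), a factor of blood and lymph vessel formation, had 1374 CPM (1296 to 1455) in EIS vascular and 1655 CPM (1522 to 1796) in EIS lymphatic cells. The few EL endothelial cells had it too, at 933 CPM in 20 vascular and 995 CPM in 25 lymphatic cells. No other class of at least 50 cells exceeded 30.9 CPM. Its relative SOX7 had 50.8 CPM in EIS vascular and 31.7 CPM in EIS lymphatic cells. Other members had unequal counts in the 2 kinds of vessel. HOXA10 had 91 UMIs in vascular and 0 in lymphatic cells. TBX3 stood at 76.8 CPM and 0 UMIs and FOXF1 at 61.4 CPM and 0 UMIs. LHX6 had 136 CPM (112 to 163) in vascular cells and 1 UMI in lymphatic cells. GATA2, which serves blood and endothelial cells, had 98.0 CPM in vascular and 130 CPM in lymphatic cells, FOXP1 165 and 176 CPM, and FOXO1 133.5 and 138 CPM.

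Among immune cells TBX21 (ENSSSCG00025007216) and GATA3 marked the T or NK class. TBX21 had 219 CPM (167 to 282) in EL and 412 CPM (363 to 467) in EIS T or NK cells, a ratio of 0.531 (0.394 to 0.706), and -0.98 on the log2 scale relative to the median gene was short of the limit. GATA3 had 94.8 CPM in EL and 96.9 CPM in EIS T or NK cells, a ratio of 0.978 (0.592 to 1.58). By the 2-fold rule 2 members were higher in EL, out of 9 tested members (22.2%), where 4.33% of all 5570 tested features were, and no member was lower, where 5.33% of features were. They were the epithelial genes MSX1, with 20 UMIs in EL and 3 in EIS, and DLX5, with 16 and 7. EL myeloid cells also had DLX5 at 117 CPM and MSX1 at 65.0 CPM, against 12.4 CPM of each in EIS myeloid cells. EL epithelium had higher levels of both genes, and the part of free RNA from it in these values was not tested. PAX5, the factor of B cells, had 208 CPM in 18 EL and 202 CPM in 29 EIS B or plasma cells, on 12 and 16 UMIs. FOXN2 had 58.3 CPM in EL and 34.5 CPM in EIS T or NK cells, and FOXP1 stood at 65.0 CPM in EL against 78.5 CPM in EIS myeloid cells.

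The patterns of the factors were compared over the 14 combinations of library and class with at least 50 cells, among the 31 members above 50 CPM. One of these classes, the 94 EIS neutrophils, had 56847 UMIs in all, so that 3 UMIs there equal 52.8 CPM. HAND1 was most like TBX3, with a Spearman rho of 0.77, then HOXA10 and HAND2, with 0.73 each. HAND2 was most like HOXA10 (0.85), GATA6 (0.78) and FOXF1 (0.75), and GATA3 most like FOXO4 (0.82), TBX21 (0.70) and TFAP2C (0.65). These describe 14 points that share 2 libraries and their depth and free RNA, and no p is given. Of the members not yet described FOXN3, a forkhead repressor, had the most UMIs, with 2268 in EL and 1363 in EIS cells. In epithelium it had 64.4 CPM in EL against 21.6 CPM in EIS, and in T or NK cells 94.8 CPM in EL against 121.5 CPM in EIS, and no comparison called it. SIX5, a homeobox gene, had 26.3 CPM in EL and 14.2 CPM in EIS epithelium, on 720 and 161 UMIs, and SIX4 had 67 UMIs in EL and 74 in EIS cells. Neither was called in any comparison. TBX2 had 3 UMIs in EL and 81 in EIS cells, HOXD4 3 and 36, and HOXC8 and TFAP2B 0 and 20 each. Under 20 in both libraries were FOXC1, with 18 in EL and 6 in EIS, SOX10 with 18 and 2, DLX1 with 9 and 8, TBX4 with 0 and 18, GATA1 with 2 and 6 and LHX2 with 1 and 4. LHX9 and PAX6 were among the 22 with none.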

How the data were processed

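Levels rest on raw UMI counts per gene and barcode, deposited with no normalization, per the file headers. Cell Ranger is given as version 2.1.1 per the submitters' processing notes and as 6.1.0 per the file headers. No source used here gives the genome build or gene annotation. Barcodes with at least 500 UMIs and 300 genes were kept, and the top 0.8% per 1000 barcodes by Scrublet score (scanpy 1.11.5) was removed (933 EL and 601 EIS barcodes), because its automatic threshold marked 0 and 1. That is a fixed rate, so doublets may remain. A cell entered a class by a minimum of distinct markers and of marker UMIs per 10000, scaled without the 5 features over 1% of a library. Gates used no member. Trophoblast-gated cells needed 2 markers and 10 such UMIs per 10000, epithelial cells 3 and 20, and mesenchymal cells 3 markers and 300 per 10000 where they entered a comparison. Classes cut from such a score are ranges, and 1.93% to 4.66% of cells lay within 1.25-fold of the limit in classes of at least 50 cells, except the other EIS mesenchymal cells. Mesenchymal cells with at least 2 UMIs of MEST, DLK1 and PLAGL1 formed the conceptus-type group.

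UMIs were summed per class and scaled to CPM. Intervals at 95% are exact Poisson for levels, exact conditional for ratios and exact binomial over the cells of a library for shares. Ratios were compared with the median feature among those with at least 20 UMIs in both groups together, and 2-fold was called. The members named were those reaching 50 CPM and 20 UMIs, up to the 8 highest of a class, plus 36 fixed names, of which 30 have a feature. A further 2 members are not reported here, though they stay in the counts. Subset genes, the T or NK comparison and several alternatives were added after the data had been seen, and the members, marker limits and lists were chosen with earlier results of these data known. The planned EL and EIS comparison of mesenchymal cells was not made. Code was tested on simulated data. The work used scipy 1.17.1, numpy 2.4.6, pandas 2.3.3 and matplotlib 3.10.9 under Python 3.11.15, and edgeR 4.0.16 for the TMM factors of 1 alternative.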

Additional observations from a re-analysis of the deposited data

How the results depend on the processing

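With 1 library per group no library could be left out. No paired analysis was possible because each group is 1 library. Counts of members higher and lower kept within 1.5 times of those reported, in the 4 comparisons planned and made, under a stricter cell filter, all barcodes, no doublet removal, scaling without the features over 1% of a library, TMM factors, removal of 10% free RNA, assignment of cells in several gates to their highest score, omission of the EIS or EL subsets and a mesenchymal limit of 100 per 10000. The last 4 were chosen after seeing the data.

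With 1 distinct marker more in each gate, the trophoblast-gated class held 90 cells, and cells that failed this gate could count as epithelial. Then 8 members were higher in trophoblast-gated cells. HAND1 differed by 0.77 and GATA3 by 1.10 on the log2 scale relative to the median gene, and FOXJ1 became -0.19. In ciliated cells 1 member was then lower in EL. With no filter on low UMI sums, which adds rare members, 20 were higher and 31 lower in EL epithelium, 13 lower in EL ciliated cells, 30 higher in trophoblast-gated cells and 25 lower in MEST or DLK1 cells. With at least 50 UMIs, 0 were higher in EL ciliated cells, 11 higher in trophoblast-gated cells and 2 lower in MEST or DLK1 cells. The shares of all features called under these settings are not given, so these counts are no result about the members.

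Thinned to 1000 UMIs per cell, which leaves fewer features to test, 7 members were higher and 6 lower in EL epithelium, 2 higher and 1 lower in EL ciliated cells, 7 higher in trophoblast-gated cells, and 1 higher and 0 lower in MEST or DLK1 cells. Members above 50 CPM in an EIS class numbered 18. SOX9 became -0.30 in ciliated cells, and LHX6 -0.75 and TBX21 -0.16 in trophoblast-gated cells. In mesenchymal cells of at least 2000 UMIs, a limit also chosen after seeing the data, 5 members were lower and MSX1 became 0.017. Other causes of these changes were not tested. Shares of all features are not given for thinned cells or for the limit of 2000 UMIs either, so these counts too are no result about the members. Depth limits statements on members with few UMIs, which the intervals show.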
